A study of Rattus norvegicus with 9 samples.

Results

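Autophagy is the route by which a cell wraps part of its own contents in a double membrane, the autophagosome, and passes it to lysosomes for digestion. It runs at a low rate in resting arterial smooth muscle and is known to respond to lack of nutrients and oxygen. The kinase complex around Ulk1 starts the process, a lipid kinase complex around Becn1 marks the membrane, and Atg proteins attach small ubiquitin-like proteins of the ATG8 family to the growing membrane. Lysosomal membrane proteins and cathepsins complete it, and the kinase mTOR and the transcription factors Tfeb and Tfe3 set its level. Transcripts of this machinery were followed in the superior mesenteric artery (SMA) of the rat through a list of 41 gene symbols chosen by function. The list was drawn up with earlier results of these data known. Of the 41 symbols, 40 were found in the deposited table of 37203 gene symbols. All 40 passed the filter on low counts that left 15482 genes for testing. The symbol Atg101 was absent, but the table held RGD1359310, which RefSeq lists as a synonym of Atg101. Its values are given separately and are not part of any count over the 40 genes.

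The SMAs came from 8-week-old Sprague-Dawley rats, and total RNA was sequenced in 9 libraries. There were 3 normal rats, 3 rats taken after 1 h of ischemia and 3 taken after 4 h. Ischemia was produced by bleeding the anaesthetised animal through a catheter in the femoral artery, so the artery studied was not itself occluded. The normal rats are labelled only as normal, and a sham operation is not described for them. Libraries held between 13114273 and 15504240 counts. Levels are given as CPM (counts scaled to library size) on library sizes scaled by the TMM method, on which 1 CPM stands for 12.06 to 17.86 counts. Atg10, at 2.58 to 4.55 CPM, had the fewest counts of the 40 genes, with 39 to 78 in a library, so each gene was counted in every library.

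All 7 smooth muscle markers, among them Acta2 and Myh11, were detected in each library, so each held smooth muscle RNA. Their summed level differed widely between rats, from 10400 to 45410 CPM in the normal group, 11900 to 43650 CPM at 1 h and 22780 to 65340 CPM at 4 h. The 10 sympathetic neuron markers summed to 15.97, 278 and 464 CPM in the normal libraries, to 723, 6420 and 6499 CPM at 1 h and to 19.8, 27.0 and 6592 CPM at 4 h. Dbh, the enzyme that makes noradrenaline, exceeded 1000 CPM in 3 libraries, replicates 1 and 3 at 1 h and replicate 3 at 4 h, and was at 0 in normal replicate 2 together with Slc6a2, Phox2a and Nefl. These 3 libraries are called the nerve-rich libraries below, a name that rests on sympathetic neuron RNA alone. The 7 Schwann cell markers summed to 233 to 4586 CPM in the normal group, 1275 to 2571 CPM at 1 h and 495 to 2343 CPM at 4 h. The highest sum, 4586 CPM, was in normal replicate 1, against 1275, 2159 and 2063 CPM in the 3 nerve-rich libraries. The 7 macrophage markers summed to 39.2 to 127 CPM in the normal group, 63.4 to 103 CPM at 1 h and 28.0 to 78.6 CPM at 4 h. The 6 adipocyte markers summed to 444 to 2349 CPM, 916 to 2261 CPM and 375 to 1087 CPM in the same order. At 1 h they were at 2092 and 2261 CPM in the nerve-rich replicates 1 and 3 and at 916 CPM in replicate 2. Smooth muscle markers summed to 23790, 11900 and 43650 CPM in these 3 libraries. At 4 h the nerve-rich replicate 3 held 978 CPM of adipocyte markers, below replicate 2 at 1087 CPM. In whole-artery RNA, fewer cells of a type and less RNA per cell cannot be told apart.

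No gene of the 40 passed the threshold in any comparison, which was an adjusted p under 0.05 with a change of more than 1.5-fold (edgeR quasi-likelihood test, Benjamini-Hochberg over all genes tested). The lowest adjusted p was 0.226 at 1 h against normal, 0.243 at 4 h against normal and 0.856 at 4 h against 1 h. The background was also low, with 9 genes called at 1 h (0.0581%), 14 at 4 h (0.0904%), 0 between the ischemic groups (0%) and 6 over the 3 groups together (0.0388%). At an unadjusted p under 0.05, 5 of the 40 stood out at 1 h, beside 16.7% of all genes tested. Of these 3 were higher, beside 7.98%, and 2 lower, beside 8.67%. At 4 h there were 2, beside 12.4% of all genes, both of them higher (5.07%) and 0 lower (7.35%). There was none between 4 h and 1 h, beside 2.58%. Over the 3 groups together 2 of the 40 had an unadjusted p under 0.05, beside 11.4%. DESeq2, run as a second tool, called 1 of the 40, Map1lc3b, at 1 h, at 4 h and over the 3 groups, beside 4.53%, 3.91% and 4.32% of all genes, and called 0 genes of any kind between 4 h and 1 h. With the mean level of the sympathetic neuron and Schwann cell markers as a covariate in edgeR, 0 of the 40 were called, beside 0.11% of all genes at 1 h, 0.575% at 4 h and 0.194% over the 3 groups.

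The median log2 fold change of the 40 genes was 0.06 at 1 h, 0.08 at 4 h and 0.01 between the ischemic groups, beside -0.01, 0.03 and -0.04 over all genes tested. At each of the 2 times 25 of the 40 lay above 0, where 49.4% of all genes did at 1 h and 52.3% at 4 h. Between 4 h and 1 h 21 of the 40 did, beside 46.4%. For 31 of the 40 the 95% interval of the change at 1 h lay within 2-fold in either direction, and the same held for 34 at 4 h and 36 between the ischemic groups. The share among all genes tested was 33.5%, 37.3% and 41%. In 31 of the 40 the highest of the 9 libraries was less than 2-fold above the lowest, beside 28.5% of all genes. All genes tested include many with lower counts, and their median SE at 1 h was 0.366 against 0.22 for the 40. These shares were not matched for expression level, so they do not show that the 40 genes were unusually steady. The 40 genes summed to 3499 to 3603 CPM in the normal group, 3749 to 4061 CPM at 1 h and 3867 to 4104 CPM at 4 h. In this sum both ischemic groups lay above the normal one, but it follows the most abundant genes more than the typical gene. From normal to 1 h the mean rose from 211 to 350 CPM for Gabarapl1 and from 281 to 389 CPM for Ctsd. That of Map1lc3a fell from 240 to 182 CPM. As a share of unscaled counts the groups overlapped, at 0.319% to 0.422% in the normal group, 0.375% to 0.486% at 1 h and 0.315% to 0.449% at 4 h.

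**Figure D1:**
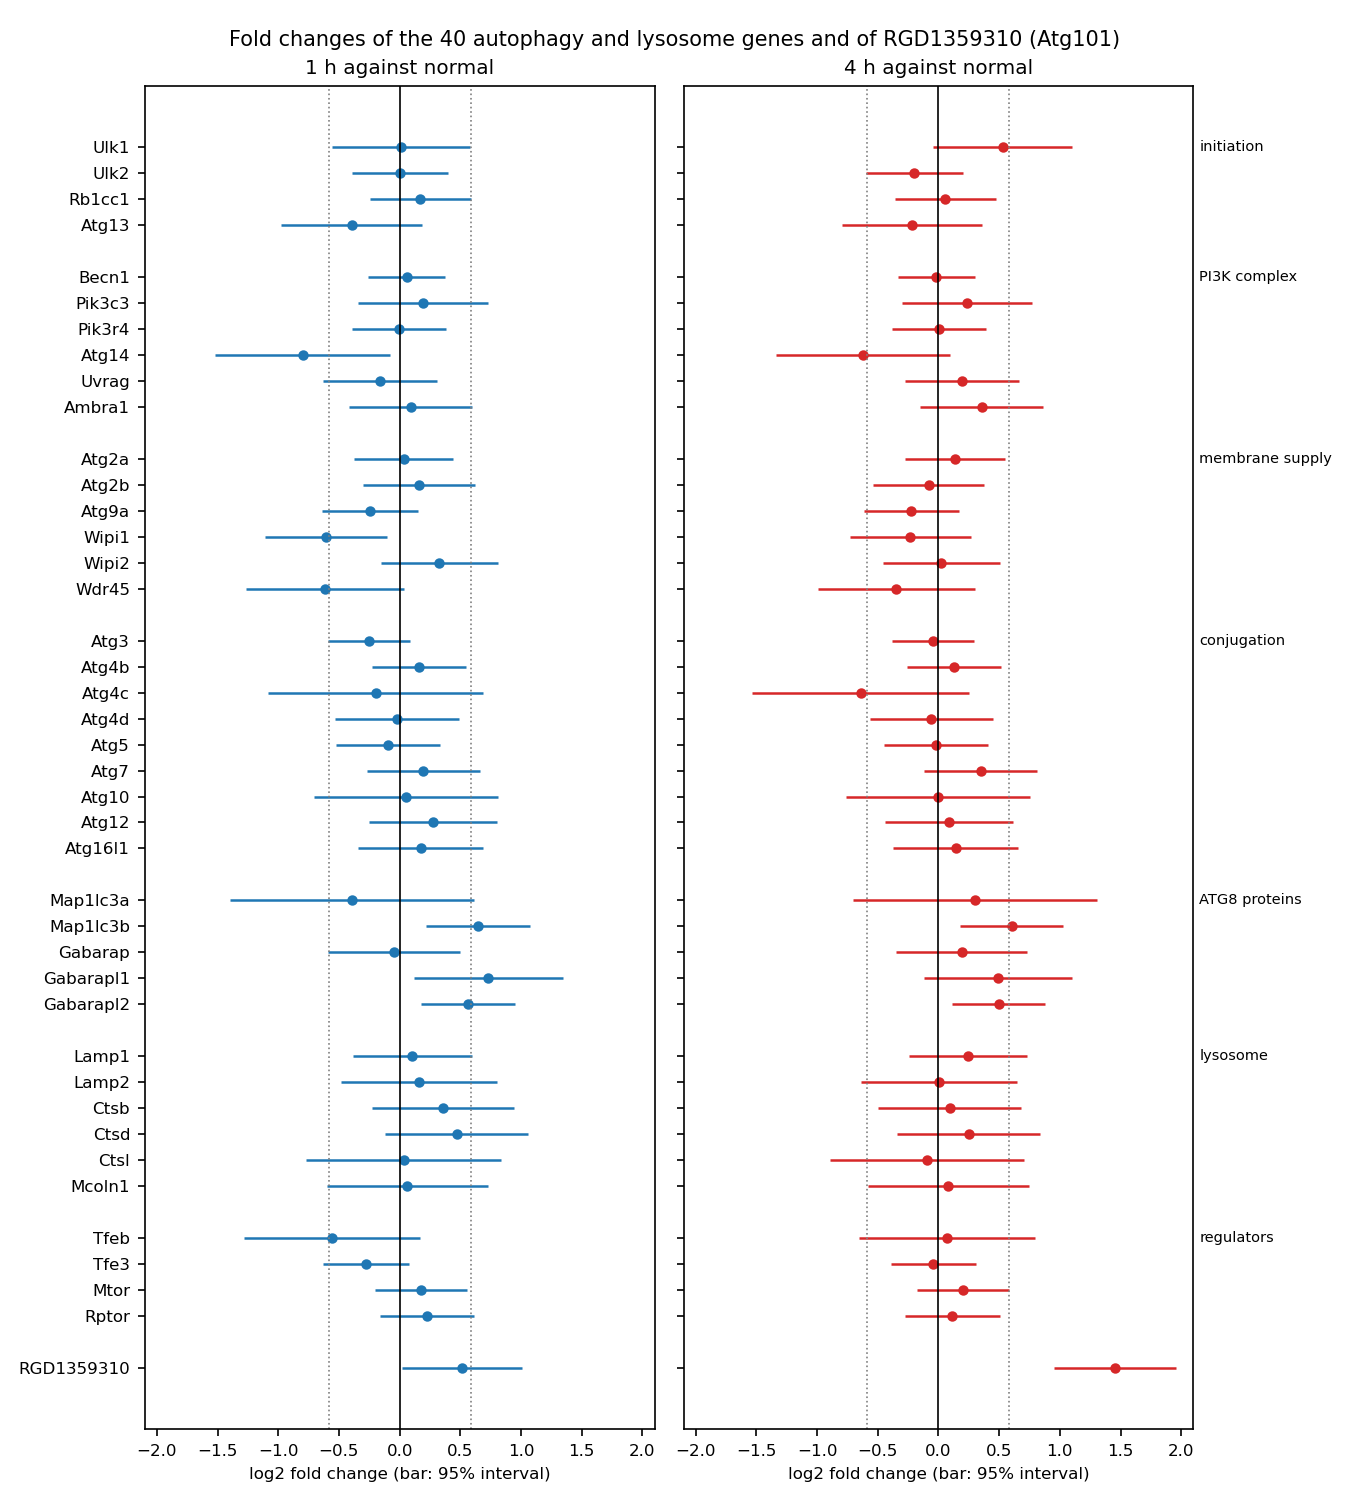
Log2 fold changes of the 40 autophagy and lysosome genes and of RGD1359310, grouped by role, at 1 h (left) and 4 h (right) against normal. Points are edgeR estimates over 3 libraries per group, bars are 95% intervals, the solid line marks no change and the dotted lines 1.5-fold. Most bars cross 0, while those of Map1lc3b and Gabarapl2 lie above 0 at both times and that of RGD1359310 at 4 h runs from 0.95 to 1.96.

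At 1 h 3 of the 40 genes were higher at an unadjusted p under 0.05 in edgeR, beside 7.98% of all genes tested, and none was called. All 3 belong to the ATG8 family, whose proteins coat the autophagosome membrane and hold its cargo receptors. The other 2 ATG8 genes lay below 0 at 1 h. Map1lc3b codes for LC3B, the usual marker of autophagosomes, and Gabarapl1 and Gabarapl2 belong to the GABARAP branch. Their promoters are printed here because these genes were higher together, with that of Lamp1 beside them as a lysosomal gene whose promoter holds several copies of the site that Tfeb and Tfe3 are known to bind. RefSeq gave 250 bases before the start of 34 of the 40 genes on assembly GRCr8. Each sequence reads 5′ to 3′ on the strand of the gene, and the capitals mark the named motif on either strand. Capitals mark CACGTG in Lamp1 (chr16:83075064-83075313, minus strand), TGACTCA in Map1lc3b (chr19:66574345-66574594, plus strand), and GGGCGG in Gabarapl1 (chr4:164666082-164666331, plus strand) and Gabarapl2 (chr19:56819576-56819825, plus strand).
Lamp1: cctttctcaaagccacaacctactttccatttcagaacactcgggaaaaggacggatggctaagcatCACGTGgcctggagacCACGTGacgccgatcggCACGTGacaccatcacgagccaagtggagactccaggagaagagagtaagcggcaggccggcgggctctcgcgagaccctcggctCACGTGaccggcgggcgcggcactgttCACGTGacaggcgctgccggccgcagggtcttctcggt
Map1lc3b: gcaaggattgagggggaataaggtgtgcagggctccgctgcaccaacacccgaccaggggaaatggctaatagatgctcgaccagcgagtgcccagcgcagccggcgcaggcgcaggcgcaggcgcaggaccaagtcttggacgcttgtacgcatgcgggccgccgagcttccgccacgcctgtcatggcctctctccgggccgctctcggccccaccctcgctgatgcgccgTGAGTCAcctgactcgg
Gabarapl1: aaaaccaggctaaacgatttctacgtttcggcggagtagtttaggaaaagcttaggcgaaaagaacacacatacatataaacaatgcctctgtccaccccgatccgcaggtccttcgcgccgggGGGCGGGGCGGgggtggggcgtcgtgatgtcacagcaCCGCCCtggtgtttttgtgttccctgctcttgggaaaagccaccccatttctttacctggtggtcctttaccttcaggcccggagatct
Gabarapl2: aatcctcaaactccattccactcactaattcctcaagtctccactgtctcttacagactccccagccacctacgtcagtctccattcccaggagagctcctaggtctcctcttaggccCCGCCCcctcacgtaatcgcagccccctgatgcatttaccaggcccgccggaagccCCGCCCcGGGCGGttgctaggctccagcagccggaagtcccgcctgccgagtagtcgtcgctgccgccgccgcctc

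The E-box CACGTG was found in 5 of the 34 promoters (14.7%), those of Atg3, Atg5, Lamp1, Ctsd and Mcoln1, and in 6.18% of the promoters of 27457 gene symbols. Its longer form TCACGTGA, the core of the CLEAR element of lysosomal genes, contains CACGTG and was found in 3 of the 34 (8.82%), Atg3, Lamp1 and Ctsd, beside 0.776% overall. Lamp1 carried 5 copies of CACGTG between 38 and 183 bases before its start, 2 of them within TCACGTGA. None of the promoters of Map1lc3b, Gabarapl1 and Gabarapl2 held CACGTG in this window. The AP-1 site TGACTCA was found in Map1lc3b, 17 bases before its start, and in Wdr45, beside 4.42% overall. The GC box GGGCGG was found in 22 of the 34 (64.7%), among them Gabarap, Gabarapl1 and Gabarapl2, beside 33.5% overall. The forkhead site TGTTTAC was found in 1, Wdr45, beside 3.54%. These matches describe letters in the reference sequence only.

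Map1lc3b was at 175, 172 and 157 CPM in the normal libraries, at 231, 267 and 288 CPM at 1 h and at 215, 261 and 287 CPM at 4 h. Every ischemic library lay above every normal one, and the 2 ischemic groups covered nearly the same range. The log2 fold change was 0.64 ± 0.19 (SE) at 1 h, with an unadjusted p of 0.00791 and an adjusted p of 0.226 in edgeR, and 0.60 ± 0.19 at 4 h, with an adjusted p of 0.243. DESeq2 gave an adjusted p of 0.00523 at 1 h and 0.0108 at 4 h, so the call on this gene turned on the tool. Without the nerve-rich libraries, which left 1 library at 1 h, assumed to vary like the others, and 2 at 4 h, the change was 0.68 at 1 h and 0.53 at 4 h. With the nerve markers as a covariate it was 0.55 and 0.59.

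Gabarapl2 showed the same order of groups. It was at 42.4, 39.3 and 43.5 CPM in normal SMA, at 58.7, 59.4 and 66.6 CPM at 1 h and at 47.9, 59.7 and 68.9 CPM at 4 h. Again no ischemic library overlapped the normal range, although replicate 1 at 4 h came close to it. Its log2 fold change was 0.56 ± 0.17 (SE) at 1 h with an adjusted p of 0.232, and 0.49 ± 0.17 at 4 h with an adjusted p of 0.289 in edgeR. In DESeq2 the adjusted p at 1 h was 0.0402, but the change of 0.58 was under 1.5-fold. On GRCr8 the gene overlaps Adat1, and without a known strand setting reads of the pair cannot be told apart.

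Gabarapl1 was at 220.0, 234 and 178 CPM in normal SMA, at 352, 286 and 412 CPM at 1 h and at 224, 267 and 396 CPM at 4 h. The groups separated at 1 h only, and at 4 h replicate 1 lay inside the normal range. Its 3 highest libraries were the 3 nerve-rich ones. At 1 h the change was 0.73 ± 0.27 (SE, log2) with an adjusted p of 0.272, and at 4 h 0.49 ± 0.27 with an adjusted p of 0.495 in edgeR. With the level of the nerve markers as a covariate it was 0.50 at 1 h and 0.43 at 4 h, and without the nerve-rich libraries 0.455 and 0.24, which is a smaller change by more than 1.5 times at both times.

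**Figure D2:**
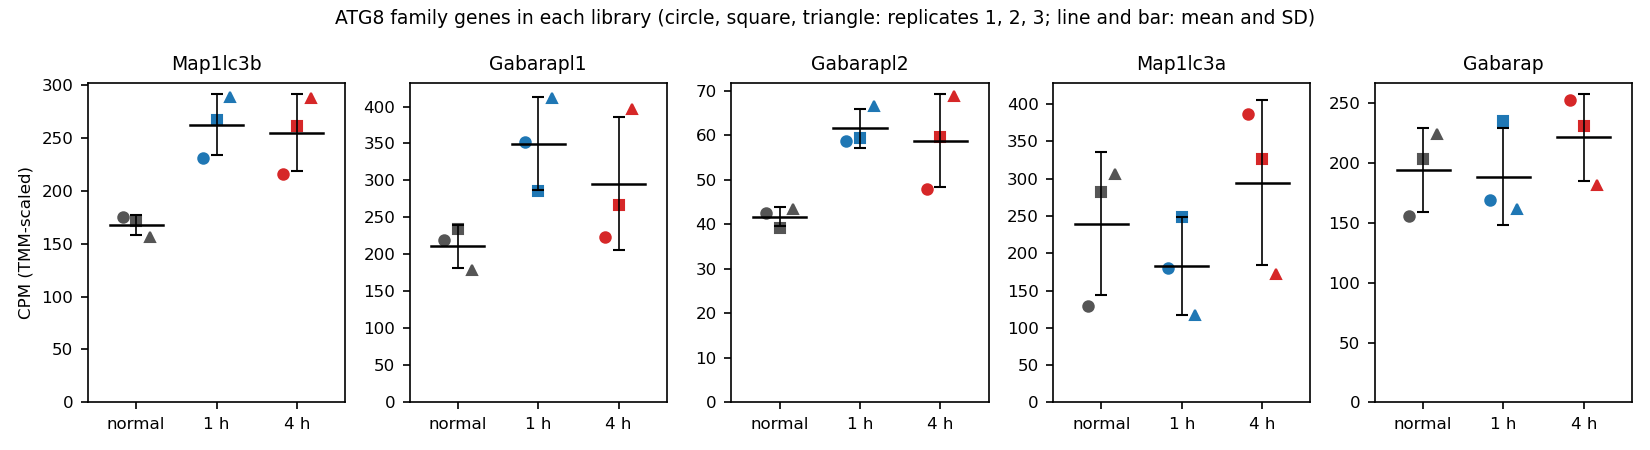
CPM of the 5 ATG8 family genes in each of the 9 libraries, by group. Symbols mark replicates 1 (circle), 2 (square) and 3 (triangle), and lines and bars mark the mean and SD of 3 libraries. Map1lc3b and Gabarapl2 lie above the normal range in all 6 ischemic libraries, Gabarapl1 does so at 1 h, and Map1lc3a and Gabarap overlap between all groups.

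The remaining ATG8 genes overlapped between all groups. Map1lc3a, which codes for LC3A, was at 130, 283 and 306 CPM in normal SMA, at 180, 249 and 118 CPM at 1 h and at 386, 326 and 172 CPM at 4 h. This 3.28-fold range between libraries was the widest of the 40 genes. The libraries fell in nearly the order of their summed smooth muscle markers. The lowest 4 on both measures were normal replicate 1, replicates 1 and 3 at 1 h and replicate 3 at 4 h, and the highest on both was replicate 1 at 4 h. The part of smooth muscle content in these levels was not tested. The log2 fold change was -0.39 ± 0.44 (SE) at 1 h with an adjusted p of 0.637 and 0.30 ± 0.44 at 4 h with an adjusted p of 0.804 in edgeR, and the sign at 1 h turned with the nerve markers as a covariate (0.21) or without the nerve-rich libraries (0.05). Gabarap was at 156, 203 and 224 CPM in normal SMA, at 169, 235 and 162 CPM at 1 h and at 253, 231 and 182 CPM at 4 h, with changes of -0.04 ± 0.24 and 0.19 ± 0.24.

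Over the 5 ATG8 genes the median log2 fold change was 0.56 at 1 h and 0.49 at 4 h. At 4 h all 5 lay above 0, and at 1 h 3 did. Without normal replicate 1, the changes at 4 h were 0.000614 for Map1lc3a and 0.0524 for Gabarap. The SE of the changes ran from 0.17 for Gabarapl2 to 0.44 for Map1lc3a. At 4 h the interval of Map1lc3a ran from -0.70 to 1.30 and covered the values of the others. At 1 h it ran from -1.40 to 0.61, which covered Gabarap and Gabarapl2 but not Map1lc3b (0.64) or Gabarapl1 (0.73). Between 4 h and 1 h no ATG8 gene had an unadjusted p under 0.05, and the changes of Map1lc3b, Gabarapl1 and Gabarapl2 were -0.04, -0.24 and -0.07. ATG8 genes are alike in sequence, and how the counting treated reads that match several of them is not given in the sources used here.

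The initiation complex was followed by 4 of the 40 genes and by RGD1359310. RGD1359310, the table's name for the gene of the ULK complex subunit Atg101, was at 20.8, 24.5 and 19.1 CPM in normal SMA, at 32.98, 32.3 and 26.7 CPM at 1 h and at 62.7, 70.3 and 43.4 CPM at 4 h. The 3 groups did not overlap, with normal lowest and 4 h highest. The log2 fold change at 4 h was 1.45 ± 0.22 (SE), or 2.74-fold, with an unadjusted p of 0.000143 and an adjusted p of 0.0701 in edgeR. At 1 h it was 0.51 ± 0.22 with an adjusted p of 0.294, and between 4 h and 1 h 0.94 ± 0.22 with an unadjusted p of 0.00234 and an adjusted p of 0.856. The change at 4 h passed the threshold in 3 alternative settings and did not pass it in the other 14. It passed in DESeq2 (adjusted p 6.63e-07), with the nerve markers as a covariate in edgeR (adjusted p 0.0187) and without replicate 3 at 4 h (edgeR adjusted p 0.0412, change 1.63). The 9 fits that left out 1 library each gave 1.30 to 1.63, with adjusted p of 0.0412 to 0.232 in edgeR.

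Ulk1, the kinase that starts autophagy, was at 69.2, 122.7 and 89.2 CPM in normal SMA, at 80.2, 120 and 83.1 CPM at 1 h and at 141, 138 and 127 CPM at 4 h. All 3 libraries at 4 h lay above the other 6. The log2 fold change at 4 h was 0.53 ± 0.25 (SE) against normal, with an adjusted p of 0.435, and 0.52 ± 0.25 against 1 h, with an adjusted p of 0.856 in edgeR. At 1 h it was 0.01 ± 0.25. Its relative Ulk2 lay at -0.20 and the scaffold genes Rb1cc1 and Atg13 at 0.06 and -0.22 at 4 h, none with an unadjusted p under 0.05. Atg13 ran from 64.4 to 118 CPM, and its 3 lowest libraries were the nerve-rich ones.

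The class III phosphatidylinositol 3-kinase complex held both the steadiest gene of the 40 and one of the most variable. Becn1, its scaffold, ran from 76.8 to 94.15 CPM over all 9 libraries, a range of 1.23-fold, with log2 fold changes of 0.06 ± 0.14 at 1 h and -0.02 ± 0.14 at 4 h. Pik3r4, the regulatory subunit, ran from 22.1 to 28.7 CPM, and stayed within 0.01 of normal on the log2 scale at both times. Atg14, which directs the complex to the site of autophagosome formation, was at 22.2, 29.3 and 19.6 CPM in normal SMA, at 10.97, 18.2 and 11.6 CPM at 1 h and at 16.04, 19.7 and 10.4 CPM at 4 h. Every library at 1 h lay below every normal one, while at 4 h replicate 2 just entered the normal range. The change was -0.80 ± 0.31 (SE) at 1 h with an unadjusted p of 0.0333 and an adjusted p of 0.285, and -0.62 ± 0.31 at 4 h with an adjusted p of 0.463 in edgeR. The 3 lowest libraries were the nerve-rich ones, and without them the change was -0.36 at 1 h and -0.385 at 4 h, smaller by more than 1.5 times. With the nerve markers as a covariate it was -0.39 at 1 h and -0.62 at 4 h, where the unadjusted p was 0.026 in edgeR in place of 0.0801. Pik3c3, the lipid kinase itself, and the cofactors Uvrag and Ambra1 lay between -0.16 and 0.19 at 1 h and between 0.19 and 0.36 at 4 h.

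Of the 6 genes that supply membrane to the growing autophagosome, Wipi1 had the smallest p-value. Its protein binds the lipid that the kinase complex makes. It was at 62.2, 51.7 and 48.3 CPM in normal SMA, at 27.4, 46.6 and 32.6 CPM at 1 h and at 46.8, 48.7 and 42.7 CPM at 4 h. The 1 h group lay below the normal range, and the 4 h group reached into it. On the log2 scale the change was -0.61 ± 0.22 (SE) at 1 h with an unadjusted p of 0.0234 and an adjusted p of 0.270, and -0.23 ± 0.22 at 4 h with an adjusted p of 0.680 in edgeR. Without the nerve-rich libraries it was -0.20 at 1 h, from replicate 2 alone, and with the nerve markers as a covariate -0.56. The gene overlaps Arsg on GRCr8, so its reads may include those of Arsg. Wdr45, a second lipid-binding gene of this kind, was 0.61 lower on the log2 scale at 1 h with an adjusted p of 0.310 and also did not overlap with normal, while Wipi2 lay 0.33 above normal with an adjusted p of 0.410. The lipid transfer genes Atg2a and Atg2b and the scramblase gene Atg9a lay within 0.25 of normal at both times.

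The 9 genes of the conjugation system, which links ATG8 proteins to lipid, showed no unadjusted p under 0.05. Their median log2 fold change was 0.05 at 1 h and -0.0012 at 4 h. Atg7, the E1-like enzyme, had the smallest unadjusted p of the group. It was at 13.7, 13.2 and 17.7 CPM in normal SMA, at 17.9, 18.0 and 15.1 CPM at 1 h and at 21.2, 19.4 and 16.1 CPM at 4 h. All groups overlapped, and the change at 4 h was 0.35 ± 0.20 (SE) with an adjusted p of 0.523 in edgeR. The E2-like Atg3 ran from 42.7 to 56.2 CPM and lay below all normal libraries at 1 h, at -0.25 ± 0.15, and Atg12 lay above them, at 0.27 ± 0.23. The ATG8 proteases Atg4b, Atg4c and Atg4d gave 0.13, -0.64 and -0.06 at 4 h. Atg4c had the second widest range of the 40, from 4.63 to 13.4 CPM, and an SE of 0.39. Atg5, Atg10 and Atg16l1 lay between -0.09 and 0.17 at 1 h and between -0.02 and 0.14 at 4 h.

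The 6 lysosomal genes all lay above 0 at 1 h, by 0.03 to 0.47 on the log2 scale, and between -0.09 and 0.25 at 4 h. None had an unadjusted p under 0.05, and no group separated from another. Lamp1, the most used marker of the lysosomal membrane and a protein the study followed, was at 392, 319 and 451 CPM in normal SMA, at 424, 444 and 379 CPM at 1 h and at 523, 434 and 417 CPM at 4 h. The change was 0.10 ± 0.21 (SE) at 1 h and 0.24 ± 0.21 at 4 h, with adjusted p of 0.811 and 0.657 in edgeR, and the interval at 4 h ran from -0.25 to 0.73. Lamp2, needed for fusion with autophagosomes, gave 0.16 at 1 h and less than 0.01 at 4 h. Of the cathepsins, the lysosomal proteases, Ctsd lay 0.47 ± 0.26 above normal at 1 h with an adjusted p of 0.347 and was highest in the 3 nerve-rich libraries, at 419 to 449 CPM against 237 to 327 CPM elsewhere. Ctsb gave 0.36 and Ctsl 0.03 at 1 h, and both ranged widely among the normal libraries, Ctsl from 129 to 244 CPM. Mcoln1, the calcium channel of the lysosome, gave 0.06 and 0.08.

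**Figure D3:**
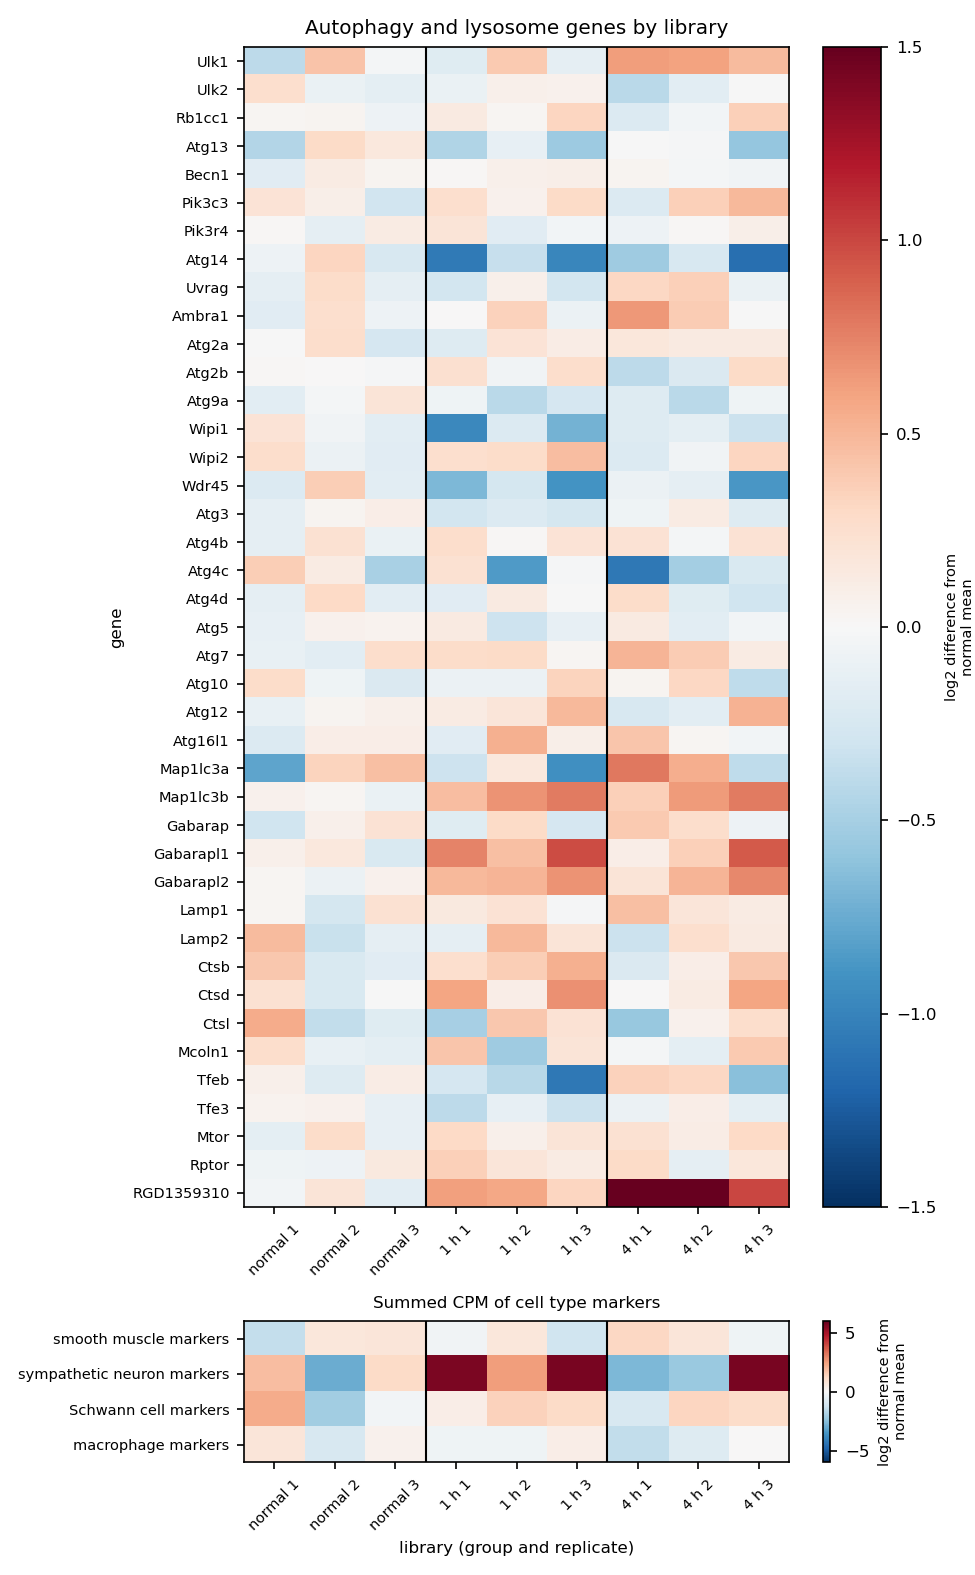
Log2 difference of each gene from the mean of the 3 normal libraries, in each of the 9 libraries (top, colours end at 1.5 in either direction), and the same for summed CPM of 4 sets of cell type markers (bottom, colours end at 6). Atg14, Wipi1 and Wdr45 are lowest, and Gabarapl1 and Ctsd highest, in replicates 1 and 3 at 1 h and replicate 3 at 4 h, the libraries with the most sympathetic neuron marker RNA.

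Among the regulators, Mtor, the kinase that holds autophagy back when nutrients are plentiful, was at 49.7, 66.6 and 50.4 CPM in normal SMA, at 67.8, 57.9 and 62.9 CPM at 1 h and at 64.6, 59.4 and 67.7 CPM at 4 h. The groups overlapped, and the log2 fold change was 0.18 ± 0.17 (SE) at 1 h and 0.20 ± 0.17 at 4 h, with adjusted p of 0.568 and 0.633 in edgeR. Its partner Rptor gave 0.23 and 0.12. The transcription factor genes Tfeb and Tfe3 both lay below every normal library at 1 h, at -0.56 ± 0.32 and -0.28 ± 0.15, with adjusted p of 0.358 and 0.349. At 4 h both overlapped the normal group, at 0.07 and -0.04. Tfeb was lowest in replicate 3 at 1 h, at 14.1 CPM, and in replicate 3 at 4 h, at 19.4 CPM, against 22.5 to 38.7 CPM elsewhere.

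At 1 h 4 of the 40 lay above all normal libraries (Map1lc3b, Gabarapl1, Gabarapl2 and Atg12), beside 12.8% of all genes tested, and 6 lay below (Atg14, Wipi1, Wdr45, Atg3, Tfeb and Tfe3), beside 13.5%. At 4 h 3 lay above (Ulk1, Map1lc3b and Gabarapl2), beside 7.93%, and 0 below, beside 10.8%. Between 4 h and 1 h 2 lay above (Ulk1 and Atg3), beside 3.2%, and 0 below, beside 3.04%. Both comparisons against normal share the 3 normal libraries. The 3 nerve-rich libraries were the 3 highest of the 9 for 4 of the 40 (10%), Rb1cc1, Atg2b, Gabarapl1 and Ctsd, beside 18% of all genes, and the 3 lowest for 5 (12.5%), Atg13, Atg14, Wipi1, Wdr45 and Tfe3, beside 8.47%. The part of nerve tissue, fat and smooth muscle in the changes at 1 h was not tested beyond the values given. By Dbh, 2 of the 3 libraries at 1 h are nerve-rich against none of the normal ones. Schwann cell markers were highest in normal replicate 1.

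**Figure D4:**
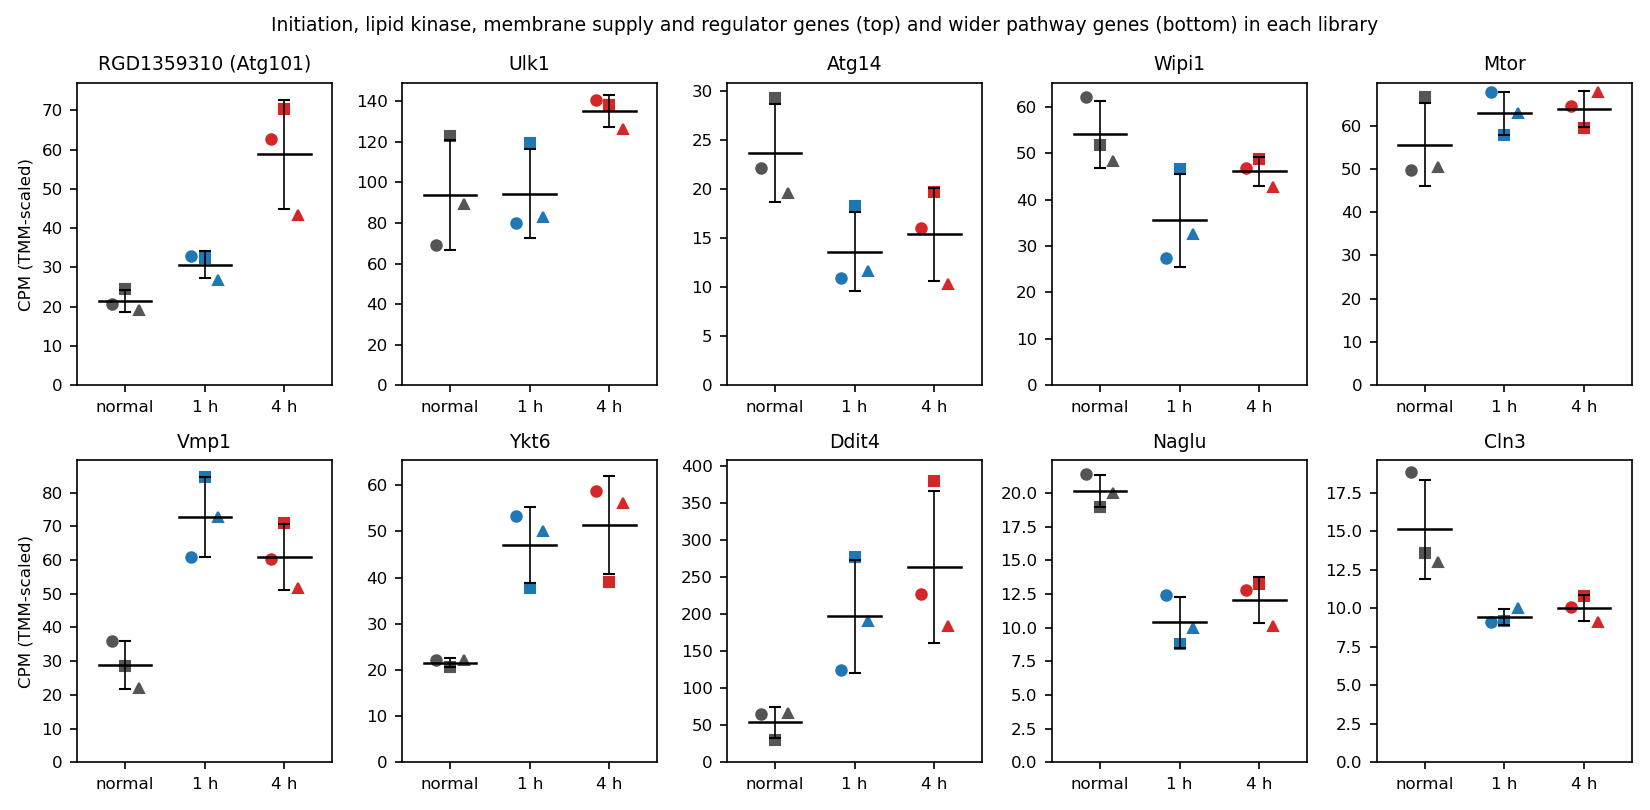
CPM in each of the 9 libraries of RGD1359310, Ulk1, Atg14, Wipi1 and Mtor (top) and of Vmp1, Ykt6, Ddit4, Naglu and Cln3 from the wider pathway (bottom). Symbols mark replicates 1 (circle), 2 (square) and 3 (triangle), and lines and bars mark the mean and SD of 3 libraries. RGD1359310 lies at 19.1 to 24.5 CPM in normal SMA and at 43.4 to 70.3 CPM at 4 h, and every ischemic library of Vmp1, Ykt6 and Ddit4 lies above, and of Naglu and Cln3 below, the normal range.

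The wider pathway was read through 131 further genes in 7 lists (cargo receptors, other assembly genes, fusion with lysosomes, mTORC1 nutrient sensing, V-ATPase, lysosomal enzymes, and lysosomal membrane proteins and carriers), of which 124 were tested. None was called by edgeR. At an unadjusted p under 0.05 there were 12 of the 124 higher and 8 lower at 1 h, beside 7.98% and 8.67% of all genes tested. At 4 h there were 6 higher and 7 lower, beside 5.07% and 7.35%, and between 4 h and 1 h 0, beside 2.58%. Vmp1, a scramblase of the endoplasmic reticulum needed to form autophagosomes, was at 36.1, 28.6 and 22.0 CPM in normal SMA, at 60.9, 84.6 and 72.7 CPM at 1 h and at 60.4, 71.1 and 51.6 CPM at 4 h. Its log2 fold change was 1.33 ± 0.23 (SE) at 1 h and 1.08 ± 0.23 at 4 h, with adjusted p of 0.121 and 0.122 in edgeR. Ykt6, a SNARE that fuses autophagosomes with lysosomes, was at 22.1, 20.6 and 22.2 CPM in normal SMA, at 53.2, 37.7 and 50.2 CPM at 1 h and at 58.9, 39.1 and 56.2 CPM at 4 h. The change was 1.12 ± 0.21 at 1 h with an adjusted p of 0.139 and 1.25 ± 0.21 at 4 h with an adjusted p of 0.0712 in edgeR. Both genes lay above the normal range in all 6 ischemic libraries.

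Ddit4, the hypoxia and stress gene whose product restrains mTORC1, was at 64.9, 29.7 and 67.2 CPM in normal SMA, at 124, 277 and 190 CPM at 1 h and at 227, 380 and 185 CPM at 4 h. No ischemic library overlapped the normal range. Its log2 fold change was 1.87 ± 0.44 (SE) at 1 h and 2.29 ± 0.45 at 4 h, with adjusted p of 0.195 and 0.0981 in edgeR. Of the 36 lysosomal enzyme genes tested 20 lay above 0 at 1 h. At an unadjusted p under 0.05 in edgeR 2 were higher, Ids (1.28) and Lgmn (0.61), and 2 were lower, beside 7.98% and 8.67% of all genes. Ids and Lgmn were highest in the 3 nerve-rich libraries, as 18% of all genes were. Ids was at 312 to 392 CPM there against 105 to 191 CPM elsewhere, and Lgmn at 117 to 134 CPM against 61.8 to 90.3 CPM. The lysosomal genes named next were picked as the lower ones with the smallest p. Naglu, an enzyme of heparan sulfate breakdown, was at 21.4, 19.0 and 20.02 CPM in normal SMA, at 12.4, 8.76 and 9.95 CPM at 1 h and at 12.8, 13.3 and 10.1 CPM at 4 h. The change was -0.95 ± 0.21 at 1 h and -0.74 ± 0.21 at 4 h, with adjusted p of 0.180 and 0.210. Gusb, another lysosomal hydrolase, gave -0.66 and -0.48, and the lysosomal membrane protein gene Cln3 gave -0.68 and -0.60, both below the normal range at each time. Plekhm1, an adaptor for fusion with lysosomes, gave -0.32 and -0.41. In DESeq2 Vmp1, Ykt6, Ddit4 and Naglu were called at both times, with adjusted p of 2.44e-05, 0.000470, 0.00302 and 0.00236 at 1 h and 0.00128, 3.64e-05, 6.99e-05 and 0.0330 at 4 h. Gusb was called by DESeq2 at 1 h alone, and Cln3 and Plekhm1 at neither time.

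The lists differed in where their genes lay. The 15 V-ATPase genes, whose products acidify the lysosome and also synaptic vesicles, had a median log2 fold change of 0.71 at 1 h and of 0.44 at 4 h. At 1 h 5 of the 15 were higher at an unadjusted p under 0.05, beside 7.98% of all genes tested, and at 4 h 0 were, beside 5.07%. Sympathetic neuron markers moved with the same libraries, since 2 of the 3 libraries at 1 h and 1 of the 3 at 4 h are nerve-rich, and their part was not tested. Atp6v1b2, named here after its values were seen, was at 369 to 468 CPM in the 3 nerve-rich libraries and at 21.9 to 66.7 CPM in the other 6. The 28 genes of mTORC1 nutrient sensing that were tested had a median of -0.135 at 1 h and -0.16 at 4 h, the 36 lysosomal enzyme genes 0.03 and -0.01, and the 19 genes of lysosomal membrane proteins and carriers -0.19 and -0.15. Fusion genes, 12 in all, had medians within 0.01 of 0 at both times, the 6 cargo receptor genes 0.29 and 0.09, and the 8 other assembly genes 0.01 and -0.12.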

How the data were processed

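Per the series description, 3 rats per group were sequenced on an Illumina HiSeq X instrument. The authors deposited one table of raw counts per gene symbol. The submitters' processing notes name HISAT2, and the counting program, genome build, annotation and strand setting are not given in the sources used here. The study's methods describe arrays, while the table holds whole numbers of 9 differing totals. Whether the 9 libraries are 9 animals rests on the series description. The study's methods can also be read as 3 individuals sampled across the conditions.

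In R 4.3.3, edgeR 4.0.16 (filterByExpr, TMM, glmQLFit, glmQLFTest) was fitted to all 9 libraries with group as the only term, and p-values were adjusted by Benjamini-Hochberg over 15482 genes. The thresholds, an adjusted p under 0.05 and a fold over 1.5, are those of the study. SE was taken as the size of a change over the root of its F statistic. The common biological coefficient of variation was 51.6%. The method was tested on simulated data. Counts of any pair of libraries differed by a chi-square per degree of freedom of at least 32.2, so none was a copy. Alternatives were 17, with DESeq2 1.42.0, RLE factors, library size only, no filter, a replicate block, a nerve score covariate, leaving out each library, only the groups compared and, added after the data were seen, leaving out the 3 libraries with Dbh above 1000 CPM. The nerve score is the mean log2 CPM of the sympathetic neuron and Schwann cell markers.

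The 40 genes and all lists were chosen with earlier results of these data known. Values in every library are given for genes with an unadjusted p under 0.05, the ATG8 genes, Mtor, Lamp1 and, in roles without one, the gene with the smallest p. For the wider lists, up to 3 genes in each direction with the smallest p and at least 5 CPM are named. All 40 symbols matched RefSeq, and 16 of them overlap another gene on GRCr8. P-values measure the spread between these libraries only.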

Additional observations from a re-analysis of the deposited data

How the results depend on the processing

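None of the 40 genes was called by edgeR under any of the other 16 settings in any comparison, while DESeq2 called 1 at 1 h, 1 at 4 h, 1 over the 3 groups and 0 between 4 h and 1 h. The count of all genes called depended strongly on the tool and the libraries, with 702 at 1 h and 606 at 4 h in DESeq2, 17 and 89 with the nerve score as a covariate, and 0 to 11 and 1 to 14 when 1 library was left out. Same-numbered libraries did not correlate consistently (4 of 9 such pairs correlated above 0.1, from -0.651 to 0.66). Libraries of different number reached similar values, such as 0.648 for normal replicate 2 and replicate 1 at 4 h. These correlations therefore cannot show or exclude a shared animal or batch. With a replicate block 0 of the 40 were called in each comparison and 7 of all genes at 1 h and 7 at 4 h. At an unadjusted p under 0.05, the number among the 40 was 2 instead of 5 at 1 h without replicate 1 or replicate 3 of that group or with the nerve score, and 1 without the 3 nerve-rich libraries. At 4 h it was 5 instead of 2 with the nerve score, 4 with the replicate block and 1 without the nerve-rich libraries. Over the 3 groups it was 5 instead of 2 without replicate 2 at 1 h, 4 with the replicate block or without replicate 3 at 4 h, 1 with library size only or without replicate 3 at 1 h or any 1 normal library, and 0 without the nerve-rich libraries. Between 4 h and 1 h it was 4 instead of 0 without replicate 3 at 4 h, 2 when the second library of the 1 h group was left out, and 1 with the replicate block, without normal replicate 1 or without the nerve-rich libraries.

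The median log2 fold change of the 40 genes at 4 h was -0.0844 with library size only, beside -0.149 over all genes, and 0.0233 with the nerve score. Between 4 h and 1 h it was -0.177 with library size only, beside -0.239 over all genes. Leaving out 1 library gave 0.0268 to 0.108 at 1 h (highest without replicate 1 at 1 h), 0.0177 to 0.103 at 4 h (lowest without normal replicate 3) and -0.025 to 0.0556 between them. Signs at 1 h turned for Map1lc3a (0.21 with the nerve score, 0.0543 without the nerve-rich libraries) and Gabarap (0.19 and 0.28). When 1 library was left out, Gabarap ran from -0.234 to 0.0714 at 1 h and from 0.0524 to 0.316 at 4 h, Map1lc3a from 0.000614 to 0.573 at 4 h, Lamp1 from -0.0346 to 0.227 and Ulk1 from -0.20 to 0.24 at 1 h. The cause was not tested. The median SE over the 40 genes at 1 h was 0.22 on the log2 scale, which limits the changes that 3 libraries per group can show.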
